A study of Canis lupus familiaris with 7 samples.

Results

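The genes described here are 9 genes of cartilage, 8 of which code for parts of the cartilage matrix and the other for SOX9, the transcription factor that directs cartilage formation. The array named 13065 genes in all. They were COL2A1, COL9A1, COL9A2, COL11A2, ACAN, HAPLN1, MATN3, COMP and SOX9. Every non-control probe that carried one of these symbols was taken, which gave 14 of the 43603 probes on the array. COL2A1 had 3 probes, COL11A2, ACAN and COMP had 2 each, and the other genes had 1 each. All 14 were among the 32309 probes kept because they were well above background on at least 3 arrays.

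RNA of 7 primary canine osteosarcomas (OS), a bone tumor whose cells lay down bone and sometimes cartilage, had been hybridised to 1 array per tumor, and the design set 4 DLG2 deleted tumors against 3 DLG2 wild-type tumors. DLG2 encodes a MAGUK protein, one of the scaffolds that gather signaling proteins at the cell membrane. Deleted tumors 1 to 4 came from a German Shepherd and Collie cross aged 8 years, a Rottweiler cross aged 9, a Greyhound aged 6 and a Great Pyrenees aged 7. Wild-type tumors 1 to 3 came from a Boxer aged 12, a Labrador Retriever cross aged 10 and a Bull Mastiff aged 8. The sex label was MC for deleted tumors 1 and 3 and wild-type tumor 3, and FS for the others. No treatment is named in the labels, and the extent of the deletion and the histological subtype of each tumor were not analysed here. The samples were tumor tissue, so cells of the host were measured with the tumor cells, and more cartilage-forming cells in a tumor cannot be told apart from more RNA of these genes in each cell. The question addressed here was how much cartilage RNA each tumor and each group held.

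Cartilage matrix is built from a fibril network and a water-binding gel. Type II collagen forms the fibrils, with type XI collagen in their core and type IX collagen on their surface. Aggrecan, the product of ACAN, fills the network with chondroitin sulfate chains, and the link protein HAPLN1 fixes it to hyaluronan. Matrilin-3 and COMP bridge the fibrils to other matrix proteins. SOX9 binds enhancers of several of these genes and is needed for chondrocytes to form. OS is often classed by the matrix it makes, and chondroblastic OS is the form in which cartilage matrix is prominent.

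The 60-base probes read short stretches of these transcripts. Those below are shown because their sequence displays the features by which the proteins are known, or because they read the gene with the widest spread. In the first pair, from collagen triple helices, capitals mark GGN codons, which code for glycine and recur at a spacing of 3 codons, 5 times in COL2A1 and 6 times in COL11A2.
COL2A1, transcript position 353: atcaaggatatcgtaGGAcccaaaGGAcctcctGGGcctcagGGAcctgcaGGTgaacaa
COL11A2, transcript position 1395: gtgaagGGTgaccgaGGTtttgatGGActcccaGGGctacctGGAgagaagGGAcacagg
The COL9A1 and COL9A2 probes read 2 chains of the same protein and resemble each other. Aligned over 54 bases without gaps they share 34 bases (63.0%), which are in capitals.
COL9A1, transcript position 2247: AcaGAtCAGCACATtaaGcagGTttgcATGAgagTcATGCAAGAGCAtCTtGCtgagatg
COL9A2, transcript position 1553: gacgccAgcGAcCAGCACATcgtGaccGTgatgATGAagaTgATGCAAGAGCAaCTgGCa
The ACAN probe holds a short stretch that occurs 2 times, in capitals. The COL2A1 probe at position 4054 was printed as 5 spots on each array and differed by more than 6 log2 units between tumors. It has no capitals.
ACAN, transcript position 2378: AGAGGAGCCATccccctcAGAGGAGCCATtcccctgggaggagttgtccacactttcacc
COL2A1, transcript position 4054: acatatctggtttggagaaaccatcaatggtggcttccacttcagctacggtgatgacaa
On the canFam2 build used by the files, the COL2A1 probes lie at chr27:9774814-9775078, chr27:9797718-9797971 and chr27:9799162-9799221 on the plus strand. COL9A1 lies at chr12:35779170-35781658 (minus), COL9A2 at chr15:5663192-5663425 (plus), and COL11A2 at chr12:5646455-5646692 and chr12:5632252-5632665 (both minus). ACAN lies at chr3:54875427-54875486 and chr3:54886514-54886573, HAPLN1 at chr3:26957504-26957563, MATN3 at chr17:18016835-18016894, COMP at chr20:47311404-47311463 and chr20:47316480-47316539, and SOX9 at chr9:11351570-11351629. The 6 probes that cover more than 60 genomic bases are split by an intron. Which exon or untranslated region each probe lies in was not analysed here.

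The arrays were first compared with one another. The scanner software marked 30280 to 34538 probes of each array as well above background and 0 spots as saturated. Spots of one probe on the same array had a median SD of 0.067 to 0.11 log2 units. Wild-type tumors 1 and 2 had a Pearson r of 0.987 over all kept probes, against 0.935 to 0.965 in the other 20 pairs. Since their labels name dogs of different breed and age, both were kept, and values with this pair counted as 1 tumor are given where they matter. The 1 probe under the DLG2 symbol ranged from 10.33 to 11.42 (log2 intensity) in deleted and from 10.88 to 12.02 in wild-type tumors, a difference of -0.78 (deleted minus wild type, log2, SE 0.36, limma adjusted p = 0.708) and the groups overlapped. Whether that probe lies in the deleted stretch was not examined, so it does not check the labels.

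No cartilage gene passed the test between the groups. At an unadjusted p under 0.05 together with an adjusted p under 0.1, 0 of the 14 probes were called, and the same rule called 0% of all kept probes. At an unadjusted p under 0.05 alone, the count was again 0 of 14 for the cartilage probes, and 7.3% over all kept probes (3.16% higher and 4.14% lower in deleted tumors). With slide as a fixed block, where the difference rests on deleted tumors 2 and 3 and wild-type tumor 2 alone, 5 of the 14 had an unadjusted p under 0.05 (4.15% of all probes), at COL2A1 (2 probes), COL9A1, ACAN and COMP, and 0 were called (limma adjusted p = 0.99999 each). The values of the groups overlapped at all 14 probes, while 8.17% of all kept probes had groups that did not overlap (3.93% higher and 4.25% lower in deleted tumors). The limma adjusted p of the 14 probes ran from 0.766 to 0.969, and the 95% interval of the difference held 0 for each. In exact permutation tests over the 35 ways to split 7 tumors into 4 and 3, p ran from 0.171 to 0.743 (two-sided). The smallest p that this design allows is 0.0571.

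The size of the differences was large beside most probes, and so was the spread. All 14 differences were above 0, that is, the mean of deleted tumors was the higher, against 51% of all kept probes. The 14 probes read 9 genes in the same 7 RNA samples, so they are not 14 independent measurements. Their median difference was 0.80 on the log2 scale (quartiles 0.58 and 1.08), and the median over all kept probes was 0.01 (quartiles -0.16 and 0.16). A difference of more than 1 in size was found at 4 of the 14 probes and at 2.14% of all kept probes. Between the highest and the lowest tumor, the cartilage probes spanned a median of 3.36 log2 units, against 0.82 over all kept probes. Even the narrowest, SOX9, had a wider span than 84.6% of all kept probes.

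**Figure D1:**
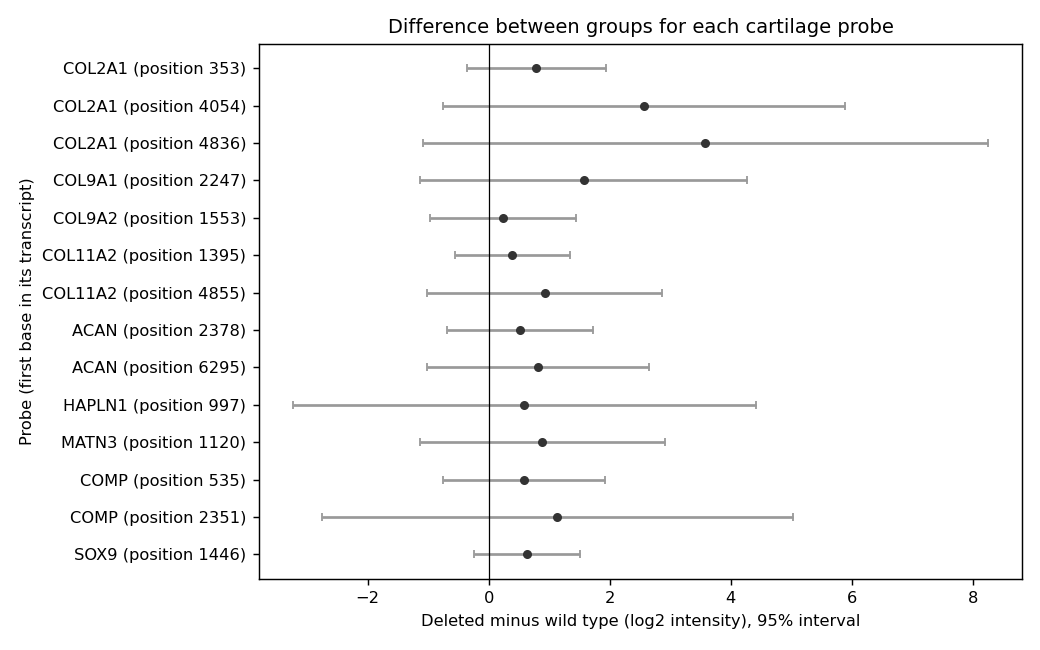
Difference between group means (deleted minus wild type, log2 intensity) at each of the 14 probes, with the 95% interval from limma, n = 4 deleted and n = 3 wild-type tumors. All points lie above 0 and all intervals cross 0. The widest belongs to the COL2A1 probe at position 4836, from -1.09 to 8.25.

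The fibril collagen COL2A1 had the widest spread of all. Its probe at position 4836 had log2 intensities of 6.47, 13.08, 15.13 and 10.11 in deleted tumors 1 to 4, and 7.501, 6.42 and 8.94 in wild-type tumors 1 to 3. Deleted tumors 2, 3 and 4 lay above every wild-type tumor, and deleted tumor 1 lay next to the lowest of them, so the groups overlapped. The highest and the lowest tumor differed 417-fold in intensity. The group means were 11.20 ± 3.76 (SD, n = 4) and 7.62 ± 1.26 (SD, n = 3). Their difference of 3.58 (SE 1.97) had a limma adjusted p of 0.767 and an exact permutation p of 0.171.

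The other COL2A1 probes were also highest in deleted tumor 3, over a narrower span. At position 4054 the values were 6.44, 10.37, 12.60 and 7.75 in deleted tumors and 6.99, 6.18 and 7.00 in wild-type tumors. Deleted tumor 3 was again the highest and deleted tumor 1 fell among the wild-type tumors. The difference here was 2.56 (SE 1.40), and 1.46 without deleted tumor 3. At position 353 the values were 6.87, 7.19, 8.68 and 6.91 in deleted tumors and 7.17, 6.46 and 6.26 in wild-type tumors, a difference of 0.78 (SE 0.48), and of 0.36 without deleted tumor 3. Wild-type tumor 3, the highest wild-type tumor at position 4836, was the lowest of the 7 here. Only deleted tumor 3 stood more than 1 log2 unit above the highest wild-type tumor at this probe. Over the 7 tumors the pairs of COL2A1 probes had Pearson r values of 0.765, 0.872 and 0.973. In COL11A2, ACAN and COMP, too, the probe nearer the 3′ end spanned the wider range, and the pairs had r values of 0.940, 0.835 and 0.818. Probes of one gene share their target, so these r values describe the probes and not the groups.

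**Figure D2:**
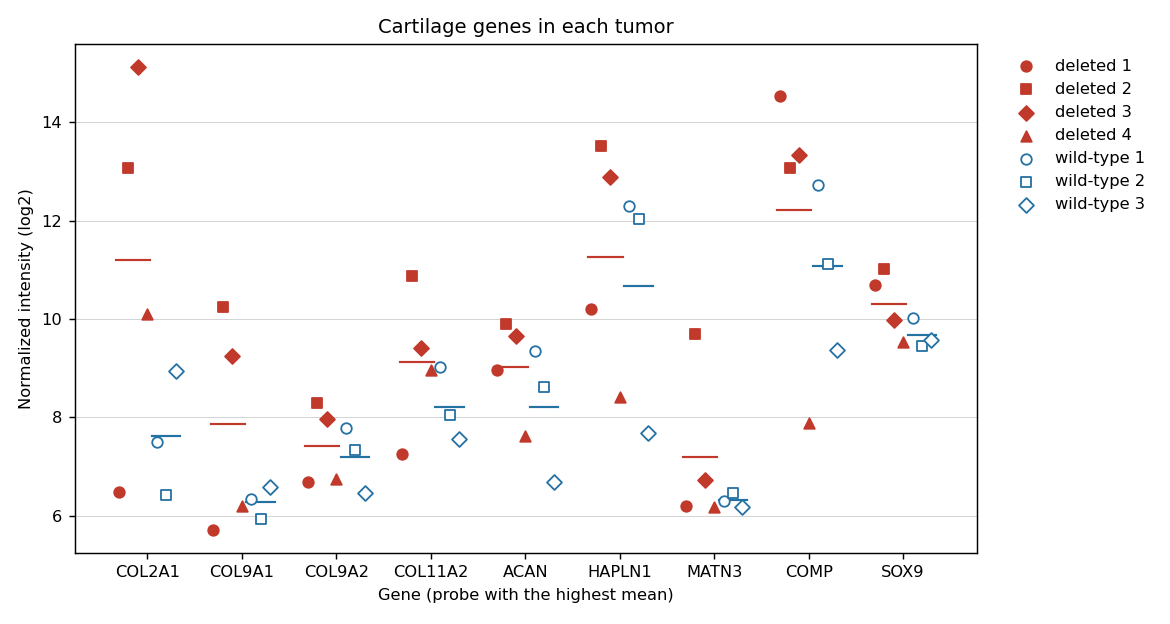
Log2 intensity in each of the 7 tumors at the probe with the highest mean for each of the 9 genes, deleted and wild-type tumors side by side, with lines at the group means. COL2A1 runs from 6.42 to 15.13, while SOX9 runs from 9.45 to 11.02, and the groups overlap for every gene.

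COL9A1 and COL9A2, the chains of type IX collagen read here, were highest in deleted tumors 2 and 3. COL9A1 had values of 5.71, 10.25, 9.24 and 6.205 in deleted tumors and 6.34, 5.92 and 6.59 in wild-type tumors. These tumors stood far above the other 5 tumors, which lay within 1 log2 unit of one another. The probe was well above background in 3 of 4 deleted and 2 of 3 wild-type tumors, not in deleted tumor 1 and wild-type tumor 2. The difference was 1.57 (SE 1.14, limma adjusted p = 0.852), and 0.77 without deleted tumor 2. COL9A2 had values of 6.68, 8.28, 7.96 and 6.75 in deleted tumors and 7.78, 7.33 and 6.45 in wild-type tumors. Here wild-type tumors 1 and 2 followed closely, and wild-type tumor 3 was the lowest. The difference of 0.23 (SE 0.51, limma adjusted p = 0.959) turned to -0.13 without wild-type tumor 3 and to -0.05 without deleted tumor 2.

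COL11A2, a chain of type XI collagen, was highest in deleted tumor 2 at both probes. At position 4855 the values were 7.26, 10.88, 9.42 and 8.96 in deleted tumors and 9.01, 8.05 and 7.55 in wild-type tumors. Deleted tumor 1 was the lowest of the 7, and deleted tumor 4 lay beside wild-type tumor 1. The difference was 0.92 (SE 0.82, limma adjusted p = 0.888), and 0.34 without deleted tumor 2. The probe at position 1395, shown above with its glycine codons, had values of 5.97, 7.67, 6.42 and 6.37 in deleted tumors and 6.54, 6.18 and 5.95 in wild-type tumors. It was not well above background in deleted tumor 1 and wild-type tumor 3, and apart from deleted tumor 2 all values lay within 1 log2 unit. Its difference was 0.39 (SE 0.40), and 0.032 without deleted tumor 2.

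ACAN, the aggrecan gene, was high in tumors of both groups. Its probe at position 6295 had values of 8.95, 9.89, 9.65 and 7.62 in deleted tumors and 9.34, 8.62 and 6.68 in wild-type tumors. Deleted tumors 2 and 3 were highest, but wild-type tumor 1 came next and wild-type tumor 3 was the lowest. The difference was 0.82 (SE 0.77, limma adjusted p = 0.898), and 0.05 without wild-type tumor 3. The repeat-bearing probe at position 2378 had values of 7.76, 9.20, 7.89 and 6.96 in deleted tumors and 7.76, 7.60 and 6.93 in wild-type tumors. There, deleted tumor 2 stood alone above a narrow band of tumors, and the difference of 0.52 (SE 0.51) became 0.11 without it.

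HAPLN1, the link protein, had values of 10.20, 13.53, 12.89 and 8.41 in deleted tumors and 12.30, 12.03 and 7.68 in wild-type tumors. Wild-type tumors 1 and 2 stood close under deleted tumors 2 and 3, an order much like that of COL9A2. COL2A1 at position 4836 was low in both. Deleted tumor 4 and wild-type tumor 3 had the lowest HAPLN1. The group means were 11.26 ± 2.38 (SD, n = 4) and 10.67 ± 2.59 (SD, n = 3), and the difference of 0.59 (SE 1.61) had a limma adjusted p of 0.969. It turned to -0.90 without wild-type tumor 3 and to -0.17 without deleted tumor 2, so its direction rested on single tumors. Counting wild-type tumors 1 and 2 as 1 tumor gave 1.34.

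MATN3 was a matter of 1 tumor. Its values were 6.19, 9.69, 6.72 and 6.18 in deleted tumors and 6.29, 6.46 and 6.18 in wild-type tumors. Deleted tumor 2 stood about 3 log2 units above the next tumor, deleted tumor 3, and the other 5 tumors lay within 0.3 of one another. The probe was not well above background in deleted tumor 4. The difference of 0.88 (SE 0.85, limma adjusted p = 0.900) fell to 0.05 when deleted tumor 2 was left out.

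COMP departed most from the collagens. The probe at position 2351 had values of 14.53, 13.08, 13.33 and 7.89 in deleted tumors and 12.73, 11.11 and 9.38 in wild-type tumors. The highest COMP value was that of deleted tumor 1, which had next to the lowest COL2A1 and the lowest COL9A1. Deleted tumor 4 had the lowest COMP of the 7 and lay above every wild-type tumor at the COL2A1 probes at positions 4054 and 4836, but not at position 353. The difference was 1.14 (SE 1.64, limma adjusted p = 0.931), and single tumors moved it between 0.29 (without wild-type tumor 3) and 2.57 (without deleted tumor 4). At position 535 the values were 8.48, 6.92, 6.68 and 5.99 in deleted tumors and 6.89, 6.31 and 6.12 in wild-type tumors, a difference of 0.58 (SE 0.56), and of 0.090 without deleted tumor 1. This probe was not well above background in deleted tumor 4, and it too was highest in deleted tumor 1. COMP is also a product of tendon and ligament. In deleted tumor 1, THBS4, a tendon protein related to COMP, was the highest of the 7 at 12.76, but the next highest, 12.01, was that of deleted tumor 4, which had the lowest COMP, and the other 5 lay between 6.69 and 10.20. TNMD, the only other of the 4 listed tendon and ligament genes with a kept probe, was 8.35 in deleted tumor 1 and 8.74 in wild-type tumor 3, against 5.90 to 7.43 in the other 5 tumors. The part of such tissue in the COMP values was not tested.

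SOX9 had the narrowest span of the 9 genes. Its values were 10.68, 11.02, 9.99 and 9.54 in deleted tumors and 10.02, 9.45 and 9.57 in wild-type tumors. Deleted tumors 1 and 2 lay above all others, deleted tumor 3 lay level with wild-type tumor 1, and deleted tumor 4 was next to the lowest. The means were 10.31 ± 0.67 (SD, n = 4) and 9.68 ± 0.30 (SD, n = 3). The difference was 0.63 (SE 0.37, limma adjusted p = 0.786), with a 95% interval from -0.25 to 1.501. It lay between 0.39 and 0.88 when each tumor was left out in turn.

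A single level per tumor was formed as the median, over the 9 genes, of the deviation from the gene's mean in the 7 tumors. Deleted tumors 1 to 4 had levels of -0.64, 2.15, 0.97 and -0.64, and wild-type tumors 1 to 3 had 0.28, -0.59 and -0.87. Deleted tumors 2 and 3 headed the series, wild-type tumor 1 came next, and deleted tumors 1 and 4 lay with wild-type tumor 2. The group means were 0.46 ± 1.36 (SD, n = 4) and -0.39 ± 0.60 (SD, n = 3), so their distance of 0.85 was smaller than the SD among deleted tumors. Each tumor had 1 array, so the error of a single level was not measured.

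By gene, all 9 mean differences were above 0, against 52.8% of all genes with a kept probe. Deleted tumor 2 was the highest of the 7 in 7 of 9 genes and above the gene's mean in 9 of 9. The exceptions were COL2A1, highest in deleted tumor 3, and COMP, highest in deleted tumor 1. Wild-type tumor 3 was below the mean in 9 of 9 genes and the lowest in 3. Among the 36 pairs of genes, Pearson r over the 7 tumors had a median of 0.61 and was above 0 in all. It was highest between ACAN and HAPLN1 (0.940) and lowest between COL2A1 and COMP (0.089). The median Spearman rho was 0.57. Without deleted tumor 2 the median r was 0.51 and 30 of the 36 pairs were above 0. These are descriptions over 7 shared RNA samples and carry no test.

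**Figure D3:**
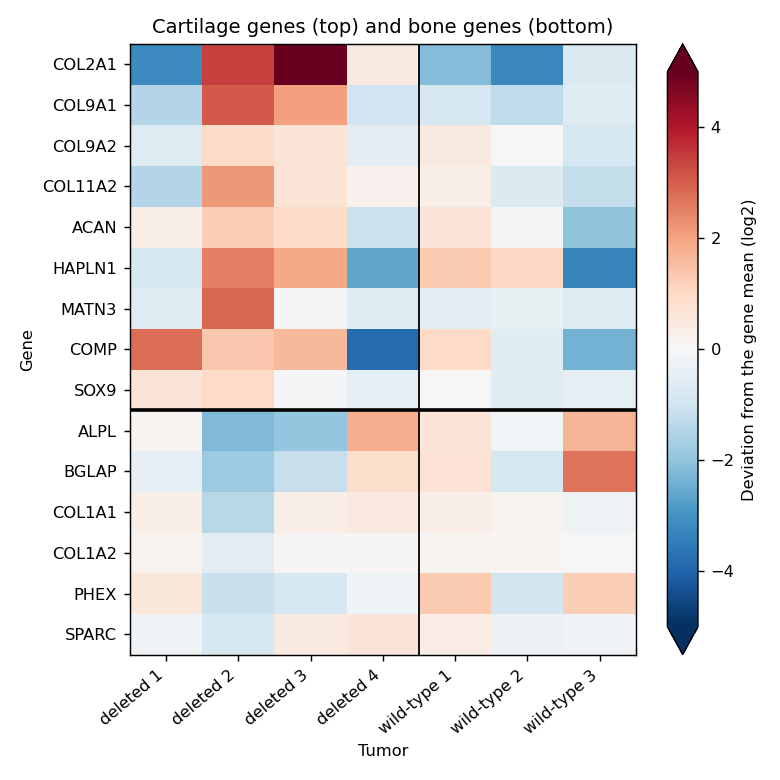
Deviation of each gene (rows) from its mean over the 7 tumors (columns), in log2 units, for the leading probe of the 9 cartilage genes (top) and of 6 bone genes (bottom), with the color scale clipped at 5 in either direction. Deleted tumor 2 is above the mean in all 9 cartilage rows and the lowest tumor in all 6 bone rows, and wild-type tumor 3 is below the mean in all 9 cartilage rows.

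Single tumors set much of the difference between the groups. The median difference over the 14 probes lay between 0.46 (without deleted tumor 2) and 1.19 (without wild-type tumor 1) when each tumor was left out in turn, and was 0.49 without wild-type tumor 3. With wild-type tumors 1 and 2 counted as 1 tumor it was 1.001. In each of these fits 0 cartilage probes were called.

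**Figure D4:**
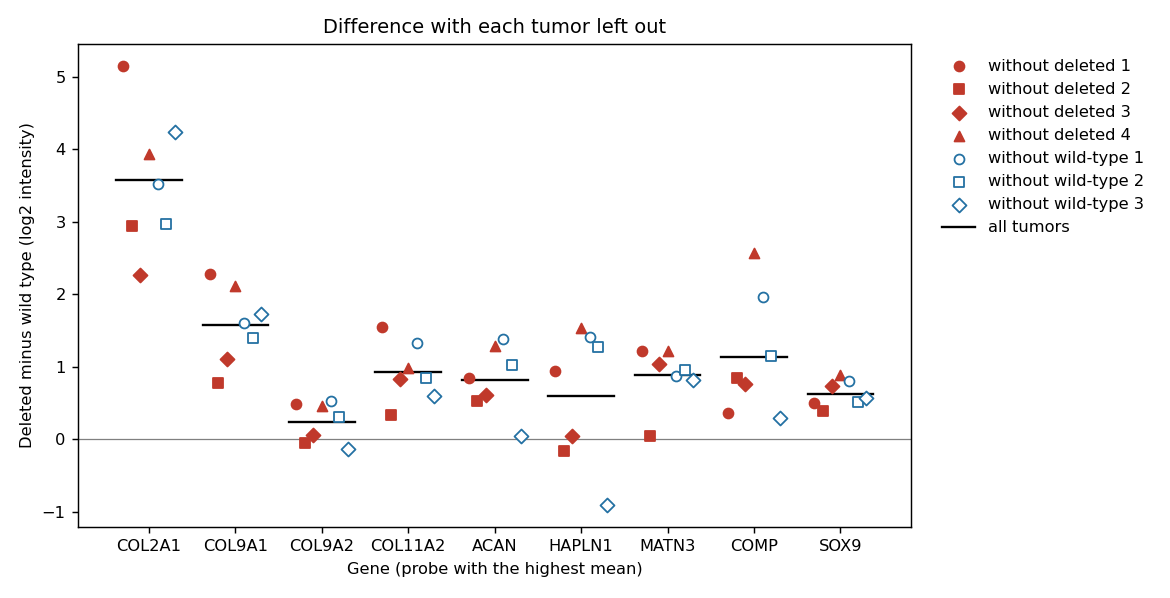
Difference between groups (deleted minus wild type, log2) for the leading probe of each gene with all 7 tumors and with each tumor left out in turn. HAPLN1 and COL9A2 cross 0, MATN3 falls to 0.05 without deleted tumor 2, and COL2A1 stays between 2.27 and 5.15.

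The arrays lay on 5 slides, of which 1 held tumors of both groups. No session was recorded as such, and 2 extraction sessions were formed by a cut where consecutive extraction times lay more than 1 hour apart. On the slide with deleted tumors 2 and 3 and wild-type tumor 2, the median difference over the 9 genes was 1.75 and 9 of 9 were above 0. Within session 1 (3 deleted and 1 wild-type tumor), 8 of 9 were above 0 with a median of 0.73. Within session 2 (1 deleted and 2 wild-type tumors), 4 of 9 were above 0 and the median was -0.05, with COL2A1 at -1.75 and COMP at 3.48. Among tumors with the sex label FS (2 and 2), 5 of 9 were above 0 with a median of 0.54, and among those labelled MC (2 and 1), 9 of 9 with a median of 0.89. The excess in deleted tumors was thus not present in every subset. With so few tumors in each, these are values without a test.

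Other genes of cartilage were then read from 5 lists, taking the probe with the highest mean for each gene. No gene of any list was called, as was the case for 0% of the 11115 genes with a kept probe, and 7.62% of those genes had an unadjusted p under 0.05 (3.72% higher and 3.9% lower in deleted tumors). Of 19 other cartilage matrix genes, 9 had a kept probe, 8 of these differences were above 0 and 0 had an unadjusted p under 0.05. Their median difference was 0.21, against 0.02 over all genes. MIA, a small secreted protein of chondrocytes and melanoma cells, had the largest difference at 1.54 (SE 0.87). It stood at 7.41, 11.05, 8.72 and 7.58 in deleted tumors and 7.62, 6.70 and 7.13 in wild-type tumors, so that deleted tumors 2 and 3 were again highest. UCMA, a matrix protein of growth plate cartilage, was higher in all 4 deleted than in all 3 wild-type tumors, but by 0.21 (SE 0.12, limma adjusted p = 0.767) at values from 6.10 to 6.57. Groups that did not overlap were found in 7.75% of all genes.

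CNMD, which codes for chondromodulin and is listed on the array as LECT1, was picked out after its values were seen. They were 8.13, 14.15, 11.34 and 8.05 in deleted tumors and 10.59, 11.38 and 5.90 in wild-type tumors. As with HAPLN1, wild-type tumors 1 and 2 were high and wild-type tumor 3 was the lowest. CRTAC1, the kept gene of the other cartilage matrix list with a difference below 0 (-0.64, SE 1.21), did not follow deleted tumors 2 and 3. It stood at 9.86, 10.49, 9.61 and 10.26 in deleted tumors and 12.02, 12.68 and 7.38 in wild-type tumors. CHAD was highest in deleted tumor 4 (8.63), followed by deleted tumors 3 (8.12) and 2 (7.58). EPYC and CILP, genes of the same list, were well above background on 0 arrays.

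Of 14 chondrogenic regulators, 12 had a kept probe, 9 differences were above 0 and the median was 0.14. WWP2, a ubiquitin ligase that works with SOX9 in cartilage, was the 1 gene with an unadjusted p under 0.05. It had values of 8.53, 8.88, 8.40 and 8.48 in deleted tumors and 7.96, 7.88 and 8.18 in wild-type tumors. All deleted tumors thus lay above all wild-type tumors, with a difference of 0.57 (SE 0.15, limma adjusted p = 0.516). BMP7, a bone morphogenetic protein, had the largest difference, at -1.997 (SE 1.01, limma adjusted p = 0.748). It was high in wild-type tumors 1 and 2 (9.91 and 10.30) and at 6.30 in wild-type tumor 3, which fell among deleted tumors 2 to 4. The partners of SOX9 did not move as a pair: SOX6 differed by 0.63 (SE 0.37) and SOX5 by -0.14 (SE 0.18).

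The list for hypertrophic cartilage, the stage that precedes bone, had a median difference of -0.31 over 5 kept genes, with 2 above 0. MEF2C, a transcription factor of chondrocyte hypertrophy, had the largest at -0.84 (SE 0.54, limma adjusted p = 0.813). Deleted tumor 2 was the lowest of the 7 in 4 of these 5 genes and the highest in the other, MMP13. COL10A1, the collagen that marks hypertrophy, has 2 probes. One was well above background in deleted tumor 3 alone and the other in deleted tumors 3 and 4 alone, so neither was kept. The levels of the hypertrophic list were -0.16, -1.22, -0.16 and 0.84 in deleted tumors and 0.11, -0.55 and 0.72 in wild-type tumors. As in the osteoblast list below, deleted tumor 2 was the lowest, and deleted tumor 4 and wild-type tumor 3 were the highest. Whether cells of cartilage or of bone held this RNA was not tested. The list of enzymes of glycosaminoglycan synthesis (14 kept genes, 10 above 0) had a median difference of 0.11. CSGALNACT1, which starts chondroitin chains, had the largest at 0.999 (SE 0.60), with deleted tumors 3 and 2 highest at 10.96 and 10.09. The list of aggrecan turnover (5 kept genes, 4 above 0) had a median of 0.10, and ADAMTS5, an aggrecanase, the largest difference at 0.51 (SE 0.33).

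**Figure D5:**
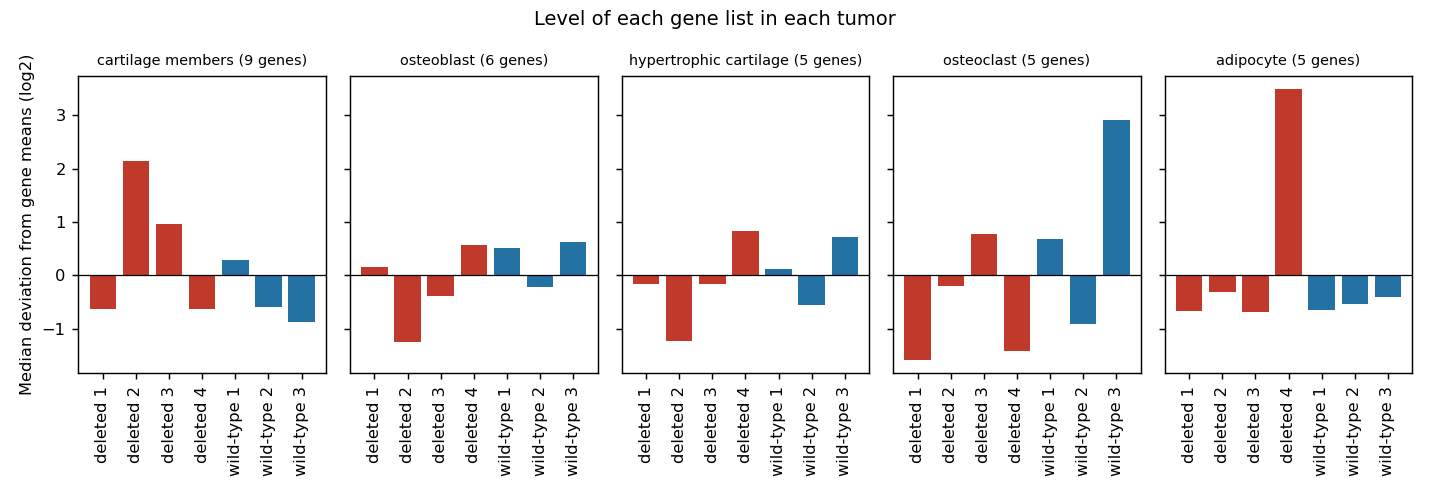
Level of 5 gene lists in each of the 7 tumors, as bars from 0 of the median deviation of a list's genes from their means (log2 units). Deleted tumor 2 has the highest level of the 9 cartilage genes (2.15) and the lowest of the osteoblast genes (-1.25).

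Markers of other tissues were set beside these values. Of 9 osteoblast genes, 6 had a kept probe (ALPL, BGLAP, COL1A1, COL1A2, PHEX and SPARC), and SP7, IBSP and DMP1 had no probe under their symbol. Their levels per tumor were 0.15, -1.25, -0.38 and 0.56 in deleted tumors and 0.51, -0.22 and 0.62 in wild-type tumors. Deleted tumor 2, the highest in cartilage genes, was the lowest in 6 of 6 osteoblast genes. ALPL, the alkaline phosphatase of bone-forming cells, was at 12.53 and 12.77 in deleted tumors 2 and 3, and between 14.58 and 16.55 in the other 5 tumors. The other osteoblast genes were mixed in deleted tumor 3. There BGLAP (10.33) was next to the lowest of the 7, and COL1A1 (15.80) and SPARC (17.21) were next to the highest. PHEX (6.20) and COL1A2 (17.63) lay between. The median difference of the osteoblast genes was -0.54, with 0 of 6 called and 0 at an unadjusted p under 0.05.

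The osteoclast list (5 kept genes) had levels of -1.58, -0.20, 0.77 and -1.42 in deleted tumors and 0.69, -0.91 and 2.92 in wild-type tumors, so wild-type tumor 3, the lowest in cartilage genes, was the highest there. The adipocyte list (5 kept genes) stood at 3.48 in deleted tumor 4 and between -0.69 and -0.31 in the others. In that tumor ADIPOQ, the fat cell hormone adiponectin, was at 13.36, against 6.45 to 7.53 elsewhere, while HAPLN1 and COMP were low. Deleted tumor 4 was the highest in 4 of the 5 adipocyte genes and the lowest in LEP (7.65, against 7.70 to 8.00 elsewhere). LPL did not overlap between groups, as was so for 7.75% of all genes. It was at 7.14, 7.41, 8.47 and 9.99 in deleted and 7.00 to 7.04 in wild-type tumors. Its difference was 1.24 (SE 0.66, limma adjusted p = 0.758). Leukocyte levels ran from -0.44 to 0.84, endothelial levels from -0.59 to 1.17 and skeletal muscle levels from -0.32 to 0.75, each highest in deleted tumor 3. Of the leukocyte genes, CD3E (0.59, SE 0.19) and MS4A1 (0.35, SE 0.10), the lymphocyte markers, had an unadjusted p under 0.05 (limma adjusted p = 0.589 and 0.560) and did not overlap between groups. MS4A1 was well above background on only 3 arrays. The other leukocyte genes with a kept probe, CSF1R and PTPRC, differed by -0.63 (SE 0.55) and -0.16 (SE 0.54), and the median of the 4 was 0.09. The part of these tissues in the cartilage values was not tested.

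The genes whose pattern over the 7 tumors was most like the cartilage level were sought among 4678 genes that spanned at least 1 log2 unit. The 8 highest Pearson r values belonged to NGEF (0.957), BSG (0.957), TAGLN3 (0.951), ATPAF2 (0.948), PHYHIPL (0.946), ENO1 (0.946), MIA (0.944) and LDHA (0.943). MIA was the only one of them in the cartilage lists. ENO1 and LDHA code for enzymes of glycolysis. LDHA had values of 13.35, 14.90, 13.94 and 13.52 in deleted tumors and between 13.36 and 13.51 in wild-type tumors, so its likeness rested mainly on deleted tumor 2. These values rank genes by likeness over 7 tumors, with many candidates and no test.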

How the data were processed

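Total RNA of 7 canine OS tumors was labelled with Cy3 and hybridised by the authors to a 1-color Agilent canine (V2) gene expression array. The deposited files hold the linear spot and local background intensity written by Agilent Feature Extraction (version 10.7.3.1, per the labels' processing notes), with probe coordinates on canFam2. The authors named multi-array average normalization, a batch correction (batch not stated) and a t-test.

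In limma 3.58.1 (R 4.3.3), normexp (saddle, offset 50) was applied to the mean signal and median local background of each spot, followed by log2 and quantile normalization. In deleted tumor 1, 5 spots with a local background over 3 times the array's median were left out, as with them the fitted background mean of that array moved from -4.88 to -658. This was decided after seeing the data. Of 45220 spots per array, 1417 controls were removed, as were 144 values with outlier marks, and averaging of repeated spots left 43603 probes. Probes had to be well above background on 3 or more arrays. Symbols were those of the files, and 1845 further probes were named through RefSeq (assembly UU_Cfam_GSD_1.0). A gene was represented by its kept probe with the highest mean.

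Groups were compared by lmFit and eBayes (two-sided, no covariates) with Benjamini-Hochberg adjustment over the 32309 kept probes. Probes were called at p under 0.05 with adjusted p under 0.1. An exact permutation test over tumors was added for single probes, with p taken as 2 times the smaller one-sided value. The tumors are separate dogs per the labels, and their numbers pair nothing. The number of arrays limits the precision. The members and lists were chosen with earlier results of these data known. Named from the lists were genes with p under 0.05 or groups that did not overlap, and the largest difference per list. Named as most like the cartilage level were the 8 genes with the highest r. SOX5, SOX6, MMP13, COL10A1, EPYC, CILP, CNMD, CRTAC1, CHAD and the marker genes were named outside this rule, after their values were seen. Alternatives were 2 processed-signal scalings, another scaling, other filters, limma options, array weights, the methods' t-test, slide, sex or age as terms, each tumor left out, a stricter threshold and 1 probe per gene. Added after seeing the data were normexp on all spots, the extraction session as a term, and wild-type tumors 1 and 2 as 1 tumor. The scripts were tested on simulated data.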

Additional observations from a re-analysis of the deposited data

Results flagged for a closer look

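MATN3 was set apart by 1 tumor. In the 4 deleted tumors its highest value, 9.69 in deleted tumor 2, was separated from the next by 0.846 of the group's whole range of 3.51 log2 units, a gap past the 95% limit of Dixon's test for 4 samples. Of 15 sets of values tested in this way, 1 passed, and chance alone gives about 1 in 20 (0.75 of 15).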

How the results depend on the processing

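Over 24 alternatives, of which 3 were chosen after seeing the data, 0 cartilage probes and 0 genes of the wider lists were called, and the smallest adjusted p of any cartilage probe was 0.290. At an unadjusted p under 0.05 the count of cartilage probes was 5 of 14 with slide as a fixed block, 3 without deleted tumor 1, 2 without deleted tumor 4, 2 with array weights (where 13.5% of all probes were), 1 with age as a covariate and 0 under the others. The median difference over the cartilage probes stayed above 0, between 0.46 and 1.73, with the highest value when age was a covariate. The dogs were aged 6 to 9 years in the deleted and 8 to 12 in the wild-type group, so age and group were partly confounded. With age as a covariate the differences of the COL2A1 probes became smaller (2.08 against 3.58 at position 4836). Those of all other cartilage probes became larger, such as HAPLN1 at 2.72 against 0.59. Leaving out each tumor gave 0.46 to 1.19. Of 327 values of single probes, 320 kept their direction. The stricter threshold, the trend and robust options, the t-test, the other filters and 1 probe per gene leave each difference as it was. Those values kept their direction by construction and say nothing of stability. The 7 that turned were HAPLN1 at -0.071 with array weights, -0.17 without deleted tumor 2, -0.90 without wild-type tumor 3 and -0.12 with a session term, and COL9A2 at -0.05 without deleted tumor 2, -0.13 without wild-type tumor 3 and -0.024 with that term. Over the left-out tumors HAPLN1 ran from -0.90 to 1.54 and COL9A2 from -0.13 to 0.53. The cause was not tested.

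Over all kept probes, 0 were called (smallest adjusted p 0.101, and 2358 at an unadjusted p under 0.05). The count was 10 with processed intensity scaled to the 75th percentile, 4 with processed intensity and quantile normalization, 4 with normexp and the 75th percentile, 4 with trend and robust options, 8 with array weights, 2 with slide as a random block and 3 with 1 probe per gene. It ran from 0 to 45 when each tumor was left out, with 45 without wild-type tumor 3. The methods' t-test gave 2244 probes at a p under 0.05 and 0 after Benjamini-Hochberg adjustment. It was run on the main values, without the authors' normalization and batch correction, so these counts do not repeat the authors' own test. Normexp with the 75th percentile moved the median of all probes to 0.12, and relative to it the cartilage median was 0.75. No paired analysis was possible because the tumor numbers only name tumors.

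With 4 and 3 tumors the intervals of the larger differences were several log2 units wide, so differences of that size were not detectable. Probes near background (MATN3, COL9A1, COL11A2 at position 1395 and COMP at position 535) understate differences between low tumors. The COL2A1 probes were well above background on all arrays, but their lowest tumors were also low, at 6.26, 6.18 and 6.42 (positions 353, 4054 and 4836). With processed intensity scaled to the 75th percentile their differences were 1.38, 3.43 and 3.89, against 0.78, 2.56 and 3.58. The sizes and folds given for COL2A1 thus depend on the processing.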
